A study of Mus musculus with 28 samples.

Results

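The genes described here are 44 interferon response genes, sorted into 8 role groups. They were chosen by name from the known targets and transducers of type I and type II interferon. Earlier results of these data were known when the list was made, so it was not chosen blind to them. Of the 44, 43 had a row in the liver table, which held all but Mx2, and all 44 had a row in each of the macrophage tables. Their RNA was measured in 16 livers and in 12 macrophage cultures derived from bone marrow. The livers came from male mice, 8 weeks old, kept for 4 weeks on food deficient in methionine and choline, which produces steatohepatitis. The control group, Lyz2-Cre, carried the Cre recombinase under the Lyz2 promoter, which is active in macrophages and neutrophils. The livers labelled NFATc3-MKO, ASK1-MKO and MDKO carried a macrophage knockout of the transcription factor NFATc3, of the kinase ASK1 (gene Map3k5), or of both, with 4 livers in each of the 4 groups. The cultures took 7 days, with L929-conditioned medium at 30% to supply M-CSF, the macrophage growth factor. They were labelled NFATc3-MKI or ASK1-MKI, macrophage knock-ins of either gene, and each knock-in had its own Lyz2-Cre controls, with 3 cultures in each of the 4 groups. Neither the labels nor the headers tied cultures to separate mice, so the p-values measure the spread between these cultures, which may be technical.

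Interferons are secreted antiviral proteins. Type I interferons bind the receptor built from Ifnar1 and Ifnar2 and, through the kinases Jak1 and Tyk2, activate a complex with Stat2 and Irf9 that binds the interferon-stimulated response element (ISRE). Type II interferon, interferon gamma, binds Ifngr1 and Ifngr2 and acts through gamma-activated sites (GAS). The targets include RNA and DNA sensors, enzymes that degrade or retain viral RNA, the ubiquitin-like protein Isg15, and GTPases that attack the vacuoles of intracellular microbes. In the liver, macrophages are among the cells that produce and answer interferon.

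Promoter sequences were taken from RefSeq (GRCm38.p6), which held an entry for 33 of the 44 genes. The 250 bases before each start were searched on both strands for the ISRE core (GAAA, then any 2 bases, then GAAA) and for the GAS core TTCNNNGAA. Some genes have several promoters in that table, 41 for the 33 genes. The ISRE core was found in 18 of these 41 promoters (43.9%), against 2.98% of all 32851 promoters, and the GAS core in 8 (19.5%), against 7.02%. Counted by gene, 17 of the 33 had an ISRE core and 8 a GAS core. The 6 promoters below belong to genes whose values carry the results, are printed 5′ to 3′ on the gene's own strand, and have the matched letters in capitals.
Isg15 (chr4:156200819-156201068, minus strand, 3 overlapping ISRE cores): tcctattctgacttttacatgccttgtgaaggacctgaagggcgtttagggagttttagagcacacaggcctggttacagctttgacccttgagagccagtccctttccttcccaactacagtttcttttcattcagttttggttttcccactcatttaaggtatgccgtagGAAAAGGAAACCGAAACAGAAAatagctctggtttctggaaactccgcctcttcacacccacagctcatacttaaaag
Rsad2 (chr12:26456453-26456702, minus strand, ISRE core on the other strand): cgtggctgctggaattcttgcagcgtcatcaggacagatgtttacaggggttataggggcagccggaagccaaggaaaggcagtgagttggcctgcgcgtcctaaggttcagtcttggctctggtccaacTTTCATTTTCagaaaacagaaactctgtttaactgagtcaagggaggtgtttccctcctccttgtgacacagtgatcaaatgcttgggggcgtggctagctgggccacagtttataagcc
Gbp7 (chr3:142530086-142530335, plus strand, 2 GAS cores, then an ISRE core on the other strand): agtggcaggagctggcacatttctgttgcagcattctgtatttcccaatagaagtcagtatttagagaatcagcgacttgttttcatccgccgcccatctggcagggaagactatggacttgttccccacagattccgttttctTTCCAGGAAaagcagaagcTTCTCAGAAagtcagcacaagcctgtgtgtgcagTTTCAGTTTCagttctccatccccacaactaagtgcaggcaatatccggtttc
Stat2 (chr10:128270248-128270497, plus strand, ISRE core on the other strand): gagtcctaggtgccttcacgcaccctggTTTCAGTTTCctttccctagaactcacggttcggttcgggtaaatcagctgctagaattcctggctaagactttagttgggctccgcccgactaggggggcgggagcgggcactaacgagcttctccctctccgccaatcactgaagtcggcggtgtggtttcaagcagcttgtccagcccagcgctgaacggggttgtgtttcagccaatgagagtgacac
Ifit2 (chr19:34550444-34550693, plus strand, GAS core): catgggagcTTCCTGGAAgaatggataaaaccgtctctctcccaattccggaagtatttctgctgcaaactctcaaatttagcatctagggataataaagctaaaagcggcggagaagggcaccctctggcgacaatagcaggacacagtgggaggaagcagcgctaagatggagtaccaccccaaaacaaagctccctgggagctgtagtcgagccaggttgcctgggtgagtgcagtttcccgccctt
Oasl1 (chr5:114922990-114923239, plus strand, no match): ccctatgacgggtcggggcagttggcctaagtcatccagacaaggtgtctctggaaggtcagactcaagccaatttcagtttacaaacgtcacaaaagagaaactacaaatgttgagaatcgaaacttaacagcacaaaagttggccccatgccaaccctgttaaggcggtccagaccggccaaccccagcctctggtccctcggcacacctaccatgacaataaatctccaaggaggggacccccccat
A match describes these letters only, and a window with no match says nothing of the factor.

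Several of the genes share a chromosome with relatives. Ifit1, Ifit2 and Ifit3 lie on chromosome 19, the 5 genes of the oligoadenylate synthetase (OAS) family at separate places on chromosome 5 (Oasl1 and Oasl2 apart from the others), Gbp2, Gbp3 and Gbp7 on chromosome 3, and Ifi204, Ifi205 and Ifi209 on chromosome 1. Members of these families have near-identical copies, so their counts are uncertain where reads could be split between copies.

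The liver libraries held 8912117 (MDKO 3) to 30834547 counts. The NFATc3-MKI set held 7693464 to 9398163 and the ASK1-MKI set 16051951 to 18728508. Levels are given in CPM, a gene's count per 1000000 counts of its library after edgeR's TMM scaling of the table, and levels of the 2 culture sets were scaled separately. Before the comparisons, the labels were checked against the targeted genes. In the livers labelled NFATc3-MKO, Nfatc3 was at 28.3 CPM against 36.3 CPM in Lyz2-Cre livers, a log2 difference of -0.36 with an adjusted p of 0.12. Map3k5 was higher, not lower, in the livers labelled ASK1-MKO (log2 difference 0.58, adjusted p = 0.0262). Nfatc3 was lower in the cultures labelled NFATc3-MKI (-0.26, adjusted p = 0.0371) and Map3k5 lower in those labelled ASK1-MKI (-0.16, adjusted p = 0.0266). In the livers labelled MDKO neither gene was lower: Nfatc3 was at 36.6 CPM (0.01) and Map3k5 at 30.6 CPM against 30.9 CPM (-0.01), each with an adjusted p of 0.9999. Values thus lay in the direction opposite to 3 of the labels and showed no difference for the MDKO label, and all directions below are drawn between labelled groups. Counts over the whole gene need not show a deletion or a knock-in that leaves most of the transcript in place.

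Each MDKO liver resembled the Lyz2-Cre liver of the same number more than any other library. Chi-square per degree of freedom, which is near 1 for libraries that differ by counting alone, was 2.31 to 13.65 for those 4 pairs, and the lowest of them included the shallow MDKO 3. It was 11.49 to 69.04 for Lyz2-Cre and MDKO livers of different numbers, and 11.1 to 137.05 for livers within a group. Whether same-numbered Lyz2-Cre and MDKO libraries share animals, tissue or preparation was not tested. Comparisons among Lyz2-Cre, NFATc3-MKO and ASK1-MKO livers are therefore given with and without the MDKO livers, and those of MDKO with the single knockouts are not independent of those of Lyz2-Cre with them.

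Macrophage markers differed widely between the 2 culture sets, and some were absent from the NFATc3-MKI set. Adgre1, which encodes F4/80, was at 2670 to 3330 CPM in the ASK1-MKI set and at 30.0 to 36.2 CPM in the NFATc3-MKI set. Lyz2 was at 26600 to 29900 CPM against 362 to 501 CPM, and Mertk, a receptor for dying cells, at 204 to 299 CPM against 0 to 0.133 CPM. C1qa and Marco were at 0 in the NFATc3-MKI set. The Y-linked genes Ddx3y and Eif2s3y were at 94.4 to 97.7 and 65.4 to 70.3 CPM in the controls of the ASK1-MKI set and at 0 in all 3 ASK1-MKI cultures, so sex and label cannot be told apart there.

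Among the control samples, the same pair of genes was highest per kilobase of exon in all 3 tables. Ifitm3, which blocks virus entry, reached 395.5 CPM per kb in Lyz2-Cre livers, 548.1 in the controls of NFATc3-MKI and 822.9 in the controls of ASK1-MKI. Bst2, which tethers budding virus, reached 52.4, 464.5 and 408.9 CPM per kb. The immunity-related GTPase Iigp1 ranked next in liver at 29.7 CPM per kb and last in both culture sets, at 0 and 3.29. The members' median was 3.9 CPM per kb in Lyz2-Cre livers, 5.41 in the NFATc3-MKI controls and 29.2 in the ASK1-MKI controls. Within role groups, Irf7 and Stat2 were the highest transducers in every table, with Irf7 at 6.85 CPM per kb in liver, 55.9 and 162.8 in the cultures. The leading sensors were Ifih1 (5.15) and Ddx58 (4.41) in liver, Dhx58 (13.0) and Ddx58 (7.47) in the NFATc3-MKI controls, and Ifi204 (122.1) and Ifi209 (104.3) in the ASK1-MKI controls. Of the IFIT family, Ifit3 (7.56) and Ifit1 (4.22) led in liver, and Ifit2 and Ifit3 in both culture sets (7.97 and 0.851, then 118.8 and 116.3). Of the OAS family, Oasl1 (7.15) and Oas1a (3.0) led in liver, Oas1a (25.3) and Oas3 (21.3) in the NFATc3-MKI controls, and Oas1a (65.8) and Oasl2 (51.8) in the ASK1-MKI controls. Of the GTPases, Iigp1 and Igtp (15.3) led in liver, Igtp (3.72) and Irgm1 (1.8) in the NFATc3-MKI controls, and Irgm1 (26.2) and Gbp2 (22.5) in the ASK1-MKI controls. Isg15 exceeded its protease Usp18 in liver (11.9 and 7.69) and in the ASK1-MKI controls (88.9 and 17.4), and was below it in the NFATc3-MKI controls (12.6 and 24.9). Among the remaining targets, Ifi27l2a led in all 3 (10.8, 231.3 and 219.4), followed by Ifi35 in liver (9.81), Ifi44 in the NFATc3-MKI controls (16.0) and Slfn5 in the ASK1-MKI controls (94.0).

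The first comparison asked how the cultures labelled NFATc3-MKI differed from their controls. Interferon response genes were higher across nearly every role group. By edgeR's quasi-likelihood test with Benjamini-Hochberg adjustment over all genes, 33 of 42 tested members rose and 1 fell at an adjusted p under 0.05. That is 81% called, against 33.3% of the 13363 genes tested, and 16.5% of all genes rose. The members' median log2 difference was 0.98, against -0.003 over all genes. As the list was not made blind to these data, the members' excess over all genes is descriptive, here and below. Ifi205 and Gbp2 were below the filter on low counts. Groups did not overlap for 37 of the 42 members, nor for 45.8% of all genes, so separate groups were common in this set.

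All 6 sensors tested rose, with a median log2 difference of 1.33. Ifi209, a PYHIN-family relative of the DNA sensor Ifi204, was at 1.07, 0.233 and 1.06 CPM in the controls and at 16.7, 18.5 and 16.8 CPM in NFATc3-MKI cultures. Every NFATc3-MKI culture lay far above every control, and the log2 difference was 4.46 ± 0.28 (SE, n = 3 per group, adjusted p = 2.955e-11 by edgeR). Zbp1, a sensor of Z-form nucleic acid that can start necroptosis, was at 4.4, 3.72 and 3.77 CPM against 17.3, 21.1 and 19.3 CPM. It rose by 2.28 ± 0.18 (adjusted p = 1.312e-09), again with no overlap. Ifi204, the RNA helicases Ifih1 (MDA5) and Ddx58 (RIG-I) and their relative Dhx58 (LGP2) rose by 1.54, 1.12, 0.51 and 0.44.

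Many antiviral effectors rose as well, among them Rsad2, the enzyme viperin, which makes a chain-terminating nucleotide. Bst2, Eif2ak2, Oas2 and Oas3 did not pass, with values given below. Rsad2 was at 24.6, 28.9 and 20.5 CPM in controls and at 98.6, 123 and 104 CPM in NFATc3-MKI cultures. The groups were far apart, and the log2 difference of 2.14 ± 0.12 had the smallest p among the members (adjusted p = 6.017e-12). Ifit2, which binds viral RNA, was at 33.4, 30.2 and 30.3 CPM against 73.7, 86.4 and 69.5 CPM, and rose by 1.29 ± 0.11 (adjusted p = 2.273e-09). Its relatives Ifit1 and Ifit3 started near 1 CPM and rose by 2.89 and 1.66.

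Of the 5 genes of the OAS family, Oas1a, Oasl1 and Oasl2 rose. Oas1a was at 50.9, 48.9 and 43.1 CPM against 106, 98.2 and 114 CPM (1.15 ± 0.10, adjusted p = 3.57e-09). Oasl1 was at 42.5, 51.4 and 37.8 CPM against 91.1, 93.8 and 104 CPM (1.14 ± 0.11, adjusted p = 2.291e-08). Both genes showed separate groups. Oas2 (0.21, adjusted p = 0.079) and Oas3 (0.01, adjusted p = 0.923) did not pass the test.

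Isg15, the ubiquitin-like modifier, was at 11.2, 9.53 and 7.89 CPM in controls and at 38.6, 28.3 and 40.5 CPM in NFATc3-MKI cultures. It rose by 1.91 ± 0.16 (adjusted p = 2.65e-09), with NFATc3-MKI 2 the lowest of its group and still above all controls. Usp18, which removes Isg15 from proteins and dampens receptor signalling, rose by 0.49. Of the other effectors, Mx1 and Mx2, genes of the dynamin-like GTPase family, rose by 2.42 and 1.28. Mx2 is annotated as a polymorphic pseudogene, so its RNA need not give a working protein. Cmpk2, which lies beside Rsad2, rose by 1.33, and the exonuclease Isg20 by 0.91. Ifitm3 rose by 0.65 and Rtp4 by 0.86. Bst2 (0.00, adjusted p = 0.981) and Eif2ak2, the kinase PKR (0.11, adjusted p = 0.411), did not pass.

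All 5 tested GTPases that answer interferon gamma rose, with a median log2 difference of 2.75. Gbp7, a guanylate-binding protein, was at 1.86, 2.67 and 1.88 CPM against 12.5, 16.3 and 14.9 CPM, and rose by 2.75 ± 0.22 (adjusted p = 1.756e-09). Gbp3 rose by 3.17, Irgm1 by 1.05 and Igtp by 0.88. Iigp1 had 0 counts in all 3 controls and 11 to 16 counts in each NFATc3-MKI culture, 39 in all. Set against the 3 counts that a total of 0 allows, Iigp1 was at least 12.2-fold higher. With Iigp1 at that bound, the median of the members stayed at 0.98.

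Of the other targets, Xaf1, a proapoptotic partner of XIAP, was at 23.6, 16.6 and 18.1 CPM against 52.4, 55.1 and 48.9 CPM (1.43 ± 0.13, adjusted p = 5.68e-09). Trim30a, a ubiquitin ligase, was at 31.4, 35.8 and 27.9 CPM against 62.7, 74.3 and 67.3 CPM (1.10 ± 0.11, adjusted p = 4.899e-08). In both genes the groups stood apart. Ifi44, Parp14 and Ifi35 rose by 0.88, 0.65 and 0.60. Slfn8 (0.56), Slfn5 (0.30) and Ifi27l2a (-0.06) did not pass.

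The transducers moved in both directions. Stat2, a subunit of the ISRE-binding complex, was the only member that fell, from 88.6, 90.7 and 88.9 CPM to 74.4, 65.6 and 67.2 CPM. All NFATc3-MKI cultures were below all controls (-0.37 ± 0.09, adjusted p = 0.00283). Irf7, which drives interferon transcription, rose by 0.72, and Irf9, the DNA-binding partner of Stat2, by 0.37 (adjusted p = 0.0116). The call on Irf9 was lost without control 1 or control 3, with an adjusted p of up to 0.0772. Irf1 was at 22.2, 18.4 and 20.5 CPM against 25.6, 16.2 and 20.2 CPM and did not pass (0.02, adjusted p = 0.934).

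Other genes of the pathway were read from a list of 108 that are no members. Of 82 tested in this set, 46 rose and 4 fell, 61% called against 33.3% of all genes. None of the 9 interferon genes listed had counts enough to be tested. Ifnb1 averaged 0.379 CPM in NFATc3-MKI cultures and 0.083 CPM in controls, and Ifng was at 0 in all 6, which allows 0.122 CPM in controls and 0.114 CPM in NFATc3-MKI cultures. None of the 5 receptor genes tested passed. Among the signalling genes, the receptor-bound kinase gene Tyk2 fell (-0.52). The listed targets with the smallest p were Slfn2 (1.83), the Fc receptor gene Fcgr1 (1.40), Slfn4 (1.08), Ifi207 (1.29) and Oas1g (1.26). Socs3, an inhibitor of cytokine receptors, rose by 1.49.

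Several marker lists differed between the groups of this set. Markers of T and NK cells, the sources of interferon gamma, summed to 0 to 0.3996 CPM in controls and 0 to 0.8619 CPM in NFATc3-MKI cultures, with 7 and 6 of 9 genes at 0 throughout. Of the plasmacytoid dendritic cell markers, Siglech was at 0.266, 0 and 0 CPM in controls and at 0 in all NFATc3-MKI cultures, and Klk1 was at 0 throughout. Nearly all of that list's sum, 127.3 to 158.5 CPM in controls and 79.98 to 105.6 CPM in NFATc3-MKI cultures, was the broadly expressed gene Tcf4. The 3 osteoclast-like markers summed to 10.52 to 13.25 CPM in controls and 18.37 to 26.93 CPM in NFATc3-MKI cultures, and both genes tested rose. The 6 general macrophage markers summed to 1501 to 1609 CPM in controls and 1885 to 2070 CPM in NFATc3-MKI cultures. The 7 markers of monocyte-derived macrophages summed to 4843 to 5453 CPM in controls and 17910 to 22530 CPM in NFATc3-MKI cultures, mostly Spp1. The part of these shifts in the members' values was not tested.

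**Figure D1:**
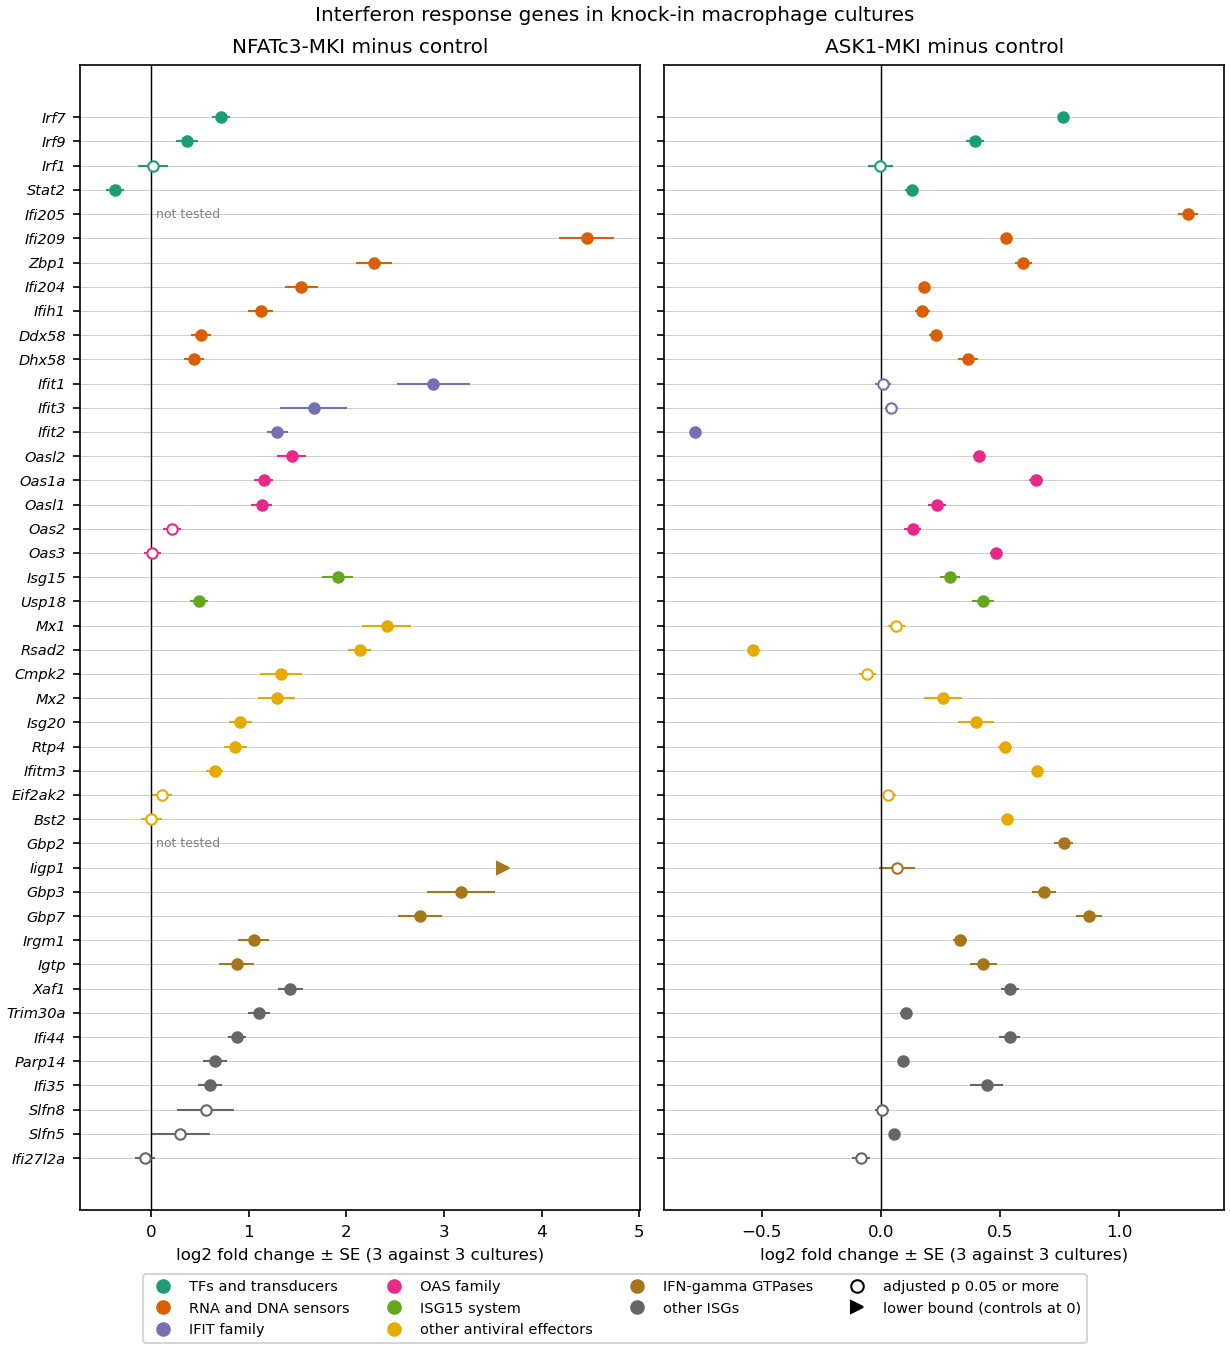
Log2 difference of each interferon response gene, knock-in minus its own control cultures, with the standard error, for NFATc3-MKI and ASK1-MKI by role group. Iigp1 in NFATc3-MKI is drawn at its lower bound, without a standard error. Most points lie above 0 in both sets, while Stat2 lies below 0 in NFATc3-MKI and Ifit2 and Rsad2 lie below 0 in ASK1-MKI.

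The second comparison set the cultures labelled ASK1-MKI against their own controls. Here too most members were higher, by smaller steps from higher levels. By edgeR, 33 of 44 members rose and 2 fell. That is 79.5% called against 49.1% of 11380 genes, with 24.6% of all genes higher. The median log2 difference was 0.31 over the members and 0.00 over all genes. Groups did not overlap for 35 of the 44 members, nor for 54.5% of all genes. Replicate cultures of this set differed by little more than counting noise (chi-square per degree of freedom 1.59 to 1.99), and differences as small as 0.05 passed the test.

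Of the transducers, Irf7 had the smallest p of all members. It was at 625, 602 and 616 CPM in controls and at 1036, 1064 and 1027 CPM in ASK1-MKI cultures. The groups were widely separate (0.76 ± 0.02, adjusted p = 1.796e-67). Irf9 rose by 0.39 and Stat2 by 0.13, the latter from 213, 221 and 205 CPM to 239, 231 and 229 CPM. Irf1 did not pass (0.00 ± 0.05, adjusted p = 0.984).

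All 7 sensors rose. Ifi205 showed the largest log2 difference of the members. It was at 47.5, 49.5 and 48.7 CPM in controls and 124, 110 and 122 CPM in ASK1-MKI cultures (1.29 ± 0.04, adjusted p = 1.035e-56). Ifi209 was at 378, 370 and 362 CPM against 530, 528 and 539 CPM (0.53 ± 0.02, adjusted p = 1.662e-45). Groups did not overlap for either gene. Zbp1, Dhx58, Ddx58, Ifi204 and Ifih1 rose by 0.60, 0.37, 0.23, 0.18 and 0.17.

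The IFIT family and Rsad2 departed from this pattern. Ifit2 was at 469, 472 and 458 CPM in controls and at 272, 270 and 274 CPM in ASK1-MKI cultures. Every ASK1-MKI culture was below every control (-0.78 ± 0.02, adjusted p = 2.35e-61). Rsad2 was at 410, 410 and 397 CPM against 281, 273 and 285 CPM and fell as clearly (-0.54 ± 0.02, adjusted p = 1.445e-43). Ifit1 was at 120, 114 and 116 CPM against 119, 113 and 121 CPM, overlapping groups, and neither Ifit1 (0.01) nor Ifit3 (0.04, adjusted p = 0.176) passed. Cmpk2, the neighbour of Rsad2, did not pass either (-0.06, adjusted p = 0.199).

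All 5 OAS genes rose. Oas1a was at 125, 119 and 127 CPM against 194, 193 and 198 CPM (0.65 ± 0.03, adjusted p = 3.699e-42). Oas3 was at 360, 359 and 347 CPM against 497, 492 and 499 CPM (0.48 ± 0.02, adjusted p = 1.765e-41). Oasl2, Oasl1 and Oas2 rose by 0.41, 0.24 and 0.13. Isg15 and Usp18 rose by 0.29 and 0.43.

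Of the membrane effectors, Ifitm3 was at 548, 555 and 570 CPM in controls and 872, 879 and 886 CPM in ASK1-MKI cultures (0.66 ± 0.02, adjusted p = 1.491e-59). Bst2 was at 373, 366 and 369 CPM against 523, 542 and 534 CPM (0.53 ± 0.02, adjusted p = 5.052e-46). Both sets of cultures were tight and separate. Rtp4, Isg20 and Mx2 rose by 0.52, 0.40 and 0.26, the call on Mx2 being lost without control 3 (adjusted p = 0.0574). Mx1 (0.06, adjusted p = 0.122) and Eif2ak2 (0.03, adjusted p = 0.41) did not pass.

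Of the GTPases, Gbp2 was at 57.1, 55.1 and 57.8 CPM in controls and 97.2, 96.0 and 96.3 CPM in ASK1-MKI cultures (0.77 ± 0.04, adjusted p = 1.383e-36). Gbp7 was at 28.1, 29.7 and 27.2 CPM against 53.0, 51.5 and 51.1 CPM, a log2 difference of 0.87 with no overlap. Gbp3, Igtp and Irgm1 rose by 0.68, 0.43 and 0.33, and Iigp1 did not pass (0.07, adjusted p = 0.485). Of the other targets, Xaf1, Ifi44 and Ifi35 rose by 0.54, 0.54 and 0.44, and Trim30a, Parp14 and Slfn5 by 0.11, 0.09 and 0.05. The call on Slfn5 was lost without control 3 or ASK1-MKI 3 (adjusted p up to 0.232). Ifi27l2a (-0.08) and Slfn8 (0.00) did not pass.

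Of the other pathway genes, 60 of 95 tested rose and 13 fell, 76.8% called against 49.1% of all genes. Ifng was at 0 in all 6 cultures, which allows 0.0556 CPM in controls and 0.06 CPM in ASK1-MKI cultures. The receptor genes rose in 4 of 6 cases, and Ifnlr1, at about 1 CPM, fell by 2.69. Of 10 signalling genes 5 rose and 3 fell, among them the kinase genes Jak2 (-0.91) and Jak1 (-0.14) and the class II activator Ciita (-1.90). Socs3 fell (-0.91). The genes of the list with the smallest p were Ms4a4c (1.10), Lgals3bp (0.72), Phf11d (1.06), Jak2, Ly6e (0.53) and Fcgr1 (0.58).

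Marker lists also differed between groups in this set. The 6 general macrophage markers summed to 33090 to 35430 CPM in controls and 35160 to 37150 CPM in ASK1-MKI cultures. These sums overlap and are mostly Lyz2. Taken singly, 4 of the 6 rose and 1 fell. Adgre1 was at 2670 to 2720 CPM in controls and 3270 to 3330 CPM in ASK1-MKI cultures. Mertk was at 204 to 215 CPM against 290 to 299 CPM, and Csf1r at 1500 to 1530 CPM against 1320 to 1350 CPM. Kupffer cell markers, led by genes other than Clec4f, which was at 0 in both groups, summed to 879.4 to 903.2 CPM in controls and 287.9 to 307.1 CPM in ASK1-MKI cultures. Neutrophil markers summed to 90.03 to 94.41 CPM against 28.19 to 29.26 CPM. Their part in the members' values was not tested. With autosomal genes alone in the fit, 36 members were called, 33 higher and 3 lower. All members are autosomal, so that fit cannot tell sex and label apart.

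**Figure D2:**
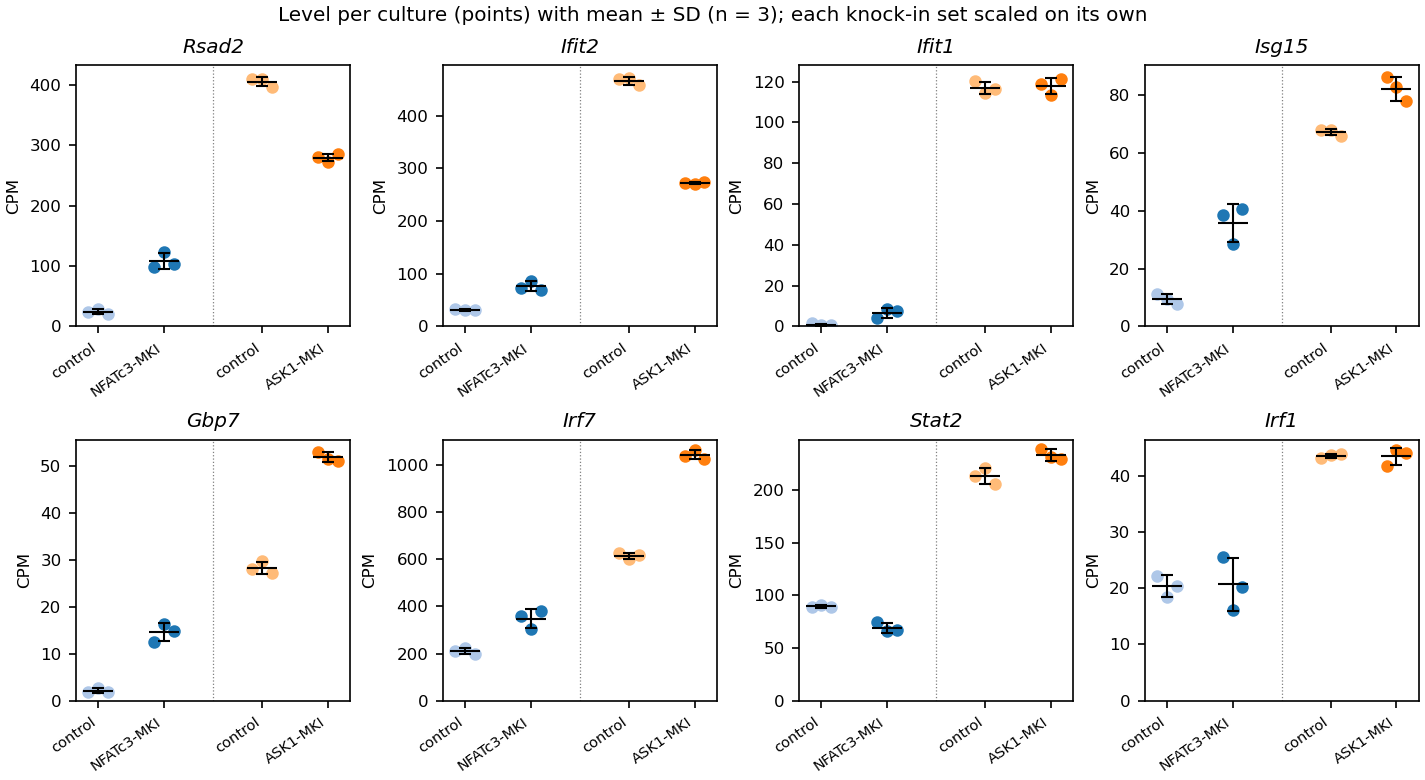
CPM of selected interferon response genes in each culture of both sets (points), with the mean and standard deviation (n = 3 per group). Rsad2 and Ifit2 were higher in NFATc3-MKI than in its controls and lower in ASK1-MKI than in its controls.

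Side by side, 33 members rose in each knock-in set, and 26 of the 42 tested in both rose in both. With most members higher in each set, a large overlap follows from those counts alone. Of all genes tested, 16.5% rose in the NFATc3-MKI set and 24.6% in the ASK1-MKI set. The share of all genes that rose in both was not computed. Among those 26, the log2 difference was larger in the NFATc3-MKI set for 23, the exceptions being Irf7, Irf9 and Ifitm3. Rsad2 and Ifit2 rose in the NFATc3-MKI set and fell in the ASK1-MKI set. Stat2 fell in the former and rose in the latter. Ifit1, Ifit3, Cmpk2, Mx1 and Iigp1 rose in the NFATc3-MKI set and were not called in the other. Oas2, Oas3, Bst2 and Slfn5 rose in the ASK1-MKI set and were not called in the NFATc3-MKI set. The sets came as separate tables with separate controls, and the difference between them was not tested.

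**Figure D3:**
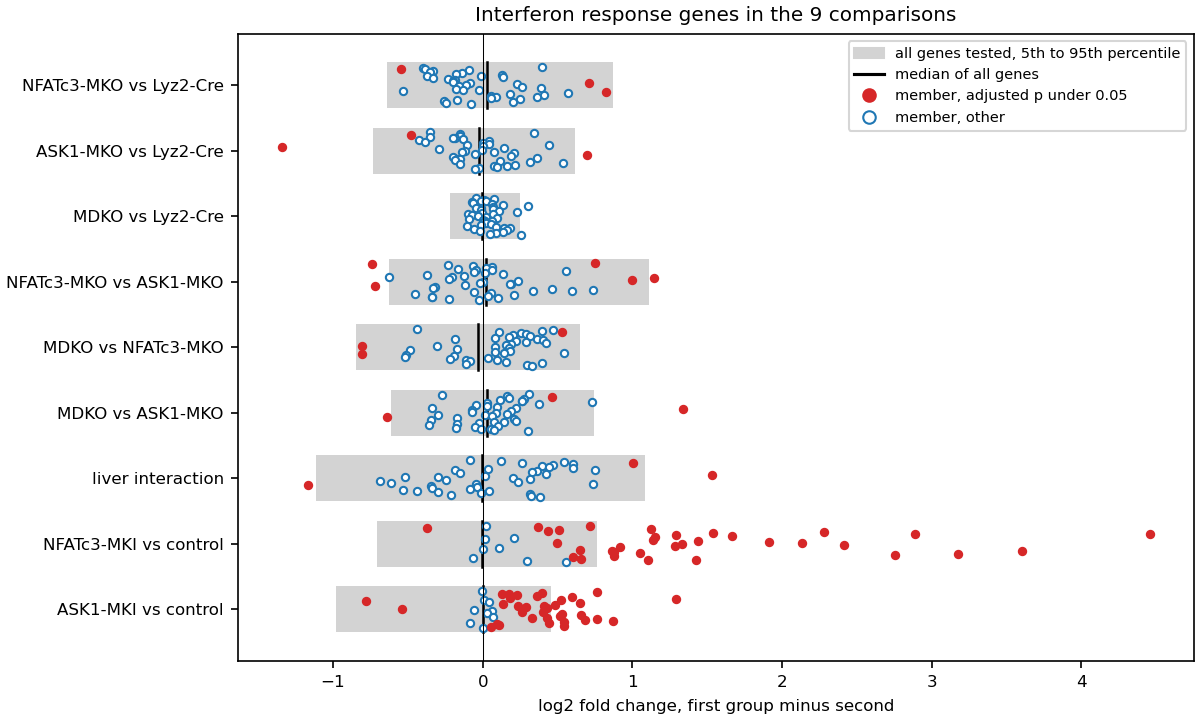
Log2 difference of each tested member (points) in each comparison, with grey bars for the spread of most genes tested and a line at the median of all. Iigp1 in NFATc3-MKI is drawn at its lower bound. The members' medians, which are not drawn, are 0.98 in NFATc3-MKI and 0.31 in ASK1-MKI, and those of the 6 liver comparisons lie between -0.09 and 0.15.

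In whole liver, the same genes did not move as a group. Small changes were harder to call there than in the cultures. In counts simulated with 200 genes changed, 6.1% of log2 changes of 0.5 were called for NFATc3-MKO against Lyz2-Cre livers. The shares were 59.1% in the NFATc3-MKI set and 78.8% in the ASK1-MKI set. Far more genes were called in the real counts of each comparison, so these shares need not hold there. A whole-liver library mixes all cell types, so fewer cells of a type and less RNA per cell cannot be told apart. In the livers labelled NFATc3-MKO against Lyz2-Cre, 2 of 43 members rose and 1 fell by edgeR in a fit of all 16 livers. That is 6.98% called against 8.45% of 13309 genes, a share near the background, with a median log2 difference of -0.09 against 0.03 over all genes. Without the MDKO livers in the fit 2 were called, and with only the 2 groups compared 0 were. In the full fit, 5 members had an unadjusted p under 0.05, against 26.6% of all genes. Groups did not overlap for 3 members, nor for 12.8% of all genes.

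Stat2 was at 38.3, 31.1, 35.4 and 32.0 CPM in Lyz2-Cre livers and at 22.5, 24.9, 21.5 and 25.1 CPM in NFATc3-MKO livers. All NFATc3-MKO livers were below all Lyz2-Cre livers (-0.54 ± 0.10, SE, n = 4 per group, adjusted p = 0.0057). Without the MDKO livers the adjusted p was 0.0193, and with only the 2 groups 0.0593. Iigp1 was at 183, 185, 129 and 195 CPM against 299, 381, 227 and 319 CPM, also without overlap (0.83 ± 0.19, adjusted p = 0.0148). Its adjusted p was 0.0198 without the MDKO livers, 0.0665 without Lyz2-Cre 3 and 0.0573 with only the 2 groups. Isg15 was at 8.65, 10.0, 7.90 and 9.39 CPM against 11.7, 12.1, 22.2 and 12.8 CPM (0.71 ± 0.21, adjusted p = 0.0418). NFATc3-MKO 3 was far above the rest. The call on Isg15 was lost without the MDKO livers (adjusted p = 0.0596), with only the 2 groups (0.0927) and without any of Lyz2-Cre 1, 3 or 4 or NFATc3-MKO 3, with an adjusted p of up to 0.133.

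Members that did not pass could still have a single high liver in this group. Gbp2 was at 12.7, 15.3, 12.6 and 17.0 CPM in Lyz2-Cre livers and at 8.44, 40.9, 10.5 and 16.8 CPM in NFATc3-MKO livers. Igtp was at 37.2, 25.8, 26.4 and 34.4 CPM against 26.0, 50.3, 26.0 and 81.6 CPM. In both genes the groups overlapped, and NFATc3-MKO 2 or NFATc3-MKO 4 stood above the rest.

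Marker lists moved in both directions with this group. Kupffer cell markers summed to 198.6 to 400.5 CPM in Lyz2-Cre livers and 174.4 to 227.1 CPM in NFATc3-MKO livers, and 2 of 6 fell. Markers of monocyte-derived macrophages summed to 89.6 to 248.3 CPM against 123.4 to 822.8 CPM, and 1 of 7 rose. General macrophage markers summed to 125.2 to 359.8 CPM in Lyz2-Cre livers and 152.6 to 741.6 CPM in NFATc3-MKO livers, overlapping ranges with 0 of 6 called. B and plasma cell markers summed to 6.829 to 11.78 CPM against 16.55 to 54.56 CPM, and 2 of 4 tested rose. Neutrophil markers summed to 3.107 to 11.68 CPM against 7.6 to 41.68 CPM, and 2 of 4 tested rose. T and NK cell markers summed to 2.853 to 5.218 CPM against 3.553 to 11.18 CPM, overlapping ranges with 0 of 9 called. Hepatocyte markers summed to 91220 to 122800 CPM against 65580 to 104400 CPM, and 1 of 5 fell. Their part in the members' values was not tested. Without NFATc3-MKO 2 and Lyz2-Cre 2, the livers highest in macrophage markers in their groups, 3 members were called. That fit was chosen after seeing the data and leaves the B and plasma cell marker sums apart, so it cannot show the part of the marker lists. Of the other pathway genes, 5 of 93 rose and 5 fell (10.8% called). Those with the smallest p were Mavs, the adaptor of RNA helicases (-0.84), Parp10 (0.66), Dtx3l (-0.60), Tor3a (-0.75), Socs3 (1.08) and Ifngr2 (0.54).

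In the livers labelled ASK1-MKO against Lyz2-Cre, 1 of 43 members rose and 2 fell. The share called was 6.98% against 8.46% of all genes, and the median was -0.05 against -0.03. Groups did not overlap for 6 members, nor for 18.2% of all genes. Oasl1, which restrains Irf7 translation, was at 15.4, 20.1, 17.6 and 21.4 CPM in Lyz2-Cre livers and at 7.60, 7.53, 6.46 and 7.78 CPM in ASK1-MKO livers. Every ASK1-MKO liver was below every Lyz2-Cre liver (-1.34 ± 0.17, adjusted p = 0.000229). Stat2 was at 24.8, 26.3, 23.3 and 23.8 CPM in ASK1-MKO livers, below all Lyz2-Cre livers (-0.48 ± 0.10, adjusted p = 0.00625). Bst2 was at 55.0, 42.6, 40.0 and 51.6 CPM in Lyz2-Cre livers and at 79.7, 85.8, 71.0 and 70.7 CPM in ASK1-MKO livers, with no overlap (0.70 ± 0.18, adjusted p = 0.0221). Without the MDKO livers the adjusted p-values were 0.000465, 0.0229 and 0.0305. The call on Bst2 was lost without Lyz2-Cre 3 or ASK1-MKO 1 or 2 (adjusted p up to 0.0812). Of the other pathway genes, Socs3 (1.15) and Slfn9 (0.79) rose and Tor3a (-1.07) fell, 3.23% of 93. Both single-knockout comparisons share the Lyz2-Cre livers, so the lower Stat2 in both is not independent evidence.

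Set against each other, the livers labelled NFATc3-MKO and ASK1-MKO differed in 5 members, 3 higher and 2 lower in NFATc3-MKO, which is 11.6% against 12.8% of all genes. Groups did not overlap for 4 members, nor for 14.6% of all genes. Oasl1 was at 12.9, 16.2, 21.1 and 14.9 CPM in NFATc3-MKO livers, above all ASK1-MKO livers (1.15, adjusted p = 0.000482). Isg15 was at 9.57, 6.17, 6.05 and 7.62 CPM in ASK1-MKO livers, below all NFATc3-MKO livers (1.00, adjusted p = 0.00541). Bst2 was at 41.0, 35.4, 68.1 and 41.9 CPM in NFATc3-MKO livers, below all ASK1-MKO livers (-0.72, adjusted p = 0.0156). For these 3 genes the calls held without the MDKO livers, and that on Bst2 was lost with only the 2 groups fitted (adjusted p = 0.0626). In the same comparison 4 of 7 markers of monocyte-derived macrophages, 3 of 4 tested of neutrophils, 2 of 4 tested of B and plasma cells and 2 of 3 of cholangiocytes were higher in NFATc3-MKO livers. Summed monocyte-derived macrophage markers were 123.4 to 822.8 CPM against 83.44 to 186.1 CPM in ASK1-MKO livers. Their part in the members' values was not tested.

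The 2 interferon regulatory factors depended on single livers. Irf7 was at 21.8, 15.6, 23.4 and 17.8 CPM in NFATc3-MKO livers and at 39.8, 40.4, 22.4 and 28.5 CPM in ASK1-MKO livers, overlapping groups (-0.74, adjusted p = 0.0221). The call was lost without NFATc3-MKO 2 or 4 or ASK1-MKO 1 or 2 (adjusted p up to 0.0751). Irf1 was at 18.6, 38.0, 21.7 and 23.1 CPM against 22.3, 12.0, 12.3 and 13.7 CPM, again overlapping (0.75, adjusted p = 0.0355). It was lost without the MDKO livers (0.0632) and without NFATc3-MKO 2 or 4 or ASK1-MKO 2, 3 or 4 (up to 0.121). With only these 2 groups fitted, 2 members, Oasl1 and Isg15, were called. Of the other pathway genes, 8 of 93 were higher and 3 lower, led by Slfn9 (-1.62), Parp10 (0.68), Mavs (-0.73), the interferon lambda receptor gene Ifnlr1 (2.29, under 1 CPM in each group), Ifngr2 (0.57) and Ifi27 (-0.74).

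In the livers labelled MDKO against Lyz2-Cre, no member was called, nor any of the 13309 genes (0%). At an unadjusted p under 0.05, edgeR gave 0 members and 0.263% of all genes, and DESeq2 called no member. The members with the smallest p were Slfn8 (0.26), Ifi44 (0.18) and Ifi205 (0.30), each with an adjusted p of 0.9999. The farthest members ranged from -0.11 to 0.30. Iigp1 was at 174, 216, 122 and 188 CPM in MDKO livers 1 to 4, with its lowest value in number 3 in both groups. Stat2 did not keep the order of the Lyz2-Cre livers, number 1 being the highest there and the lowest among MDKO livers.

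Against each single knockout, MDKO livers differed in the same 3 members as Lyz2-Cre livers did, and in the same direction. Stat2 was at 32.6, 33.1, 36.0 and 33.9 CPM in MDKO livers, above every NFATc3-MKO liver (0.53, adjusted p = 0.00542) and every ASK1-MKO liver (0.46, adjusted p = 0.0080). Oasl1 was at 13.4, 21.1, 19.2 and 20.6 CPM, above every ASK1-MKO liver (1.34, adjusted p = 0.000279). Iigp1 (-0.80, adjusted p = 0.0175) and Isg15 (-0.81, adjusted p = 0.027) were lower than in NFATc3-MKO livers, and Bst2 was lower than in ASK1-MKO livers (-0.64, adjusted p = 0.0367). Isg15 was at 8.05, 10.1, 6.56 and 8.53 CPM and Bst2 at 58.7, 49.1, 39.7 and 49.5 CPM in MDKO livers, below the group each was compared with. In each of these 2 comparisons 3 members were called, 6.98% against 7.35% and 7.72% of all genes. Groups did not overlap for 4 members in each, nor for 12.7% and 18.1% of all genes. With only MDKO and NFATc3-MKO livers fitted, Iigp1 (adjusted p = 0.0719) and Isg15 (0.0944) were lost. Without the Lyz2-Cre livers in the fit, Isg15 (adjusted p = 0.0546) and Bst2 (0.0605) were lost. The call on Isg15 was also lost without NFATc3-MKO 3, MDKO 3 or MDKO 4 (up to 0.0903), that on Iigp1 without MDKO 3 (0.0639), and that on Bst2 without ASK1-MKO 1, 2 or 4 or MDKO 2, 3 or 4 (up to 0.12). Of the 93 other pathway genes tested, 5 rose and 3 fell against NFATc3-MKO, and 1 rose and 3 fell against ASK1-MKO.

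**Figure D4:**
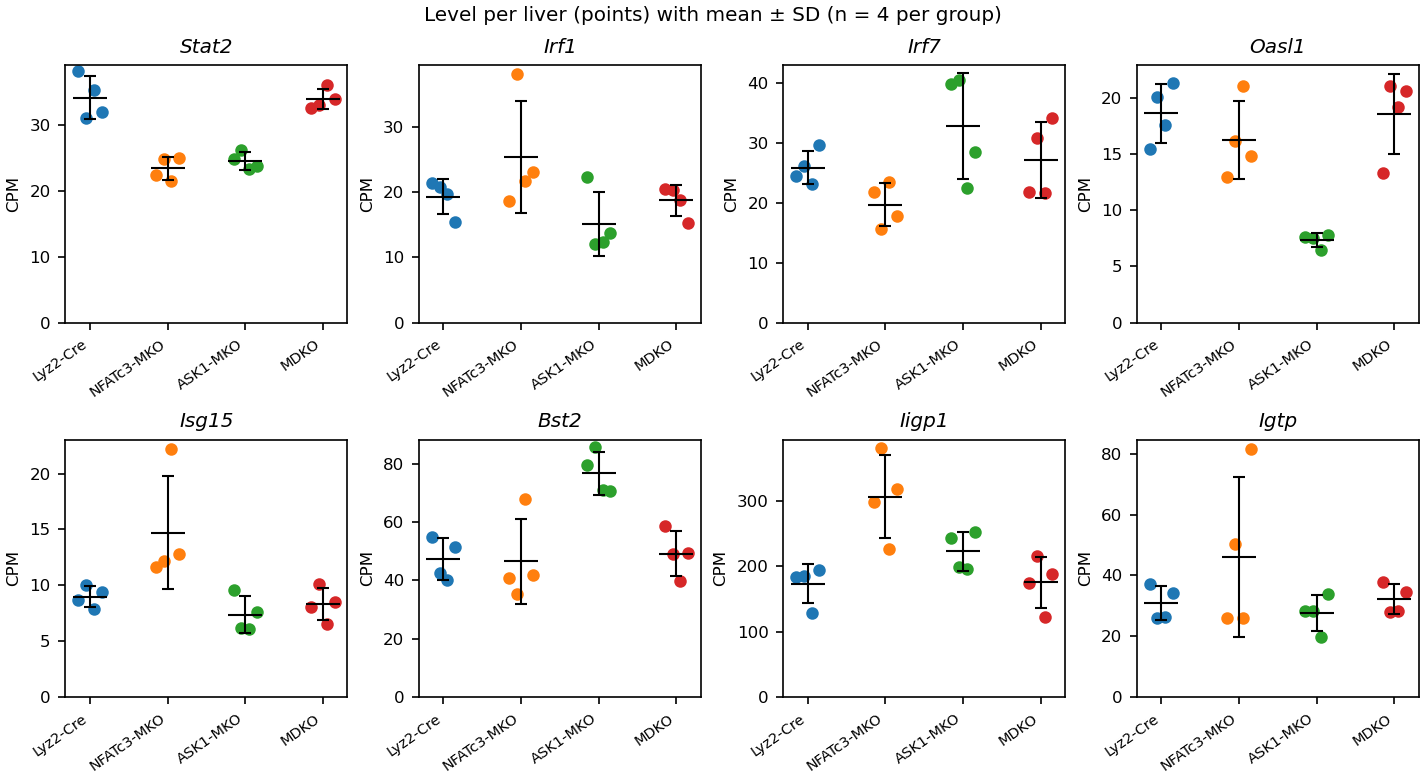
CPM of 8 members in each liver (points), with the mean and standard deviation (n = 4 per group). Stat2 lies between 21.5 and 26.3 CPM in both single knockouts and at 31.1 CPM or above in Lyz2-Cre and MDKO livers, and Oasl1 is below 8 CPM only in ASK1-MKO livers.

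The last liver test asked whether livers labelled MDKO differed from the sum of the single-knockout differences. The interaction was MDKO minus NFATc3-MKO minus ASK1-MKO plus Lyz2-Cre on the log2 scale. Of the members, 2 had positive and 1 a negative interaction, 6.98% called against 16.2% of all genes. Stat2, lower in both single knockouts and not in MDKO livers, had an interaction of 1.01 ± 0.14 (adjusted p = 0.000225). Oasl1 had 1.53 ± 0.24 (adjusted p = 0.000535), and Iigp1 -1.17 ± 0.26 (adjusted p = 0.00684). These 3 calls held in all 66 values from the alternatives, which include leaving out each liver in turn. The interaction uses the MDKO livers and cannot be given without them. Every alternative kept MDKO livers, so none could show how far the calls rest on their likeness to Lyz2-Cre livers. Of the other pathway genes 11 of 93 were called, led by Tor3a (1.69), Socs3 (-2.02), Znfx1 (1.31), Dtx3l (0.93), Ikbke (-0.76) and Mavs (0.88).

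**Figure D5:**
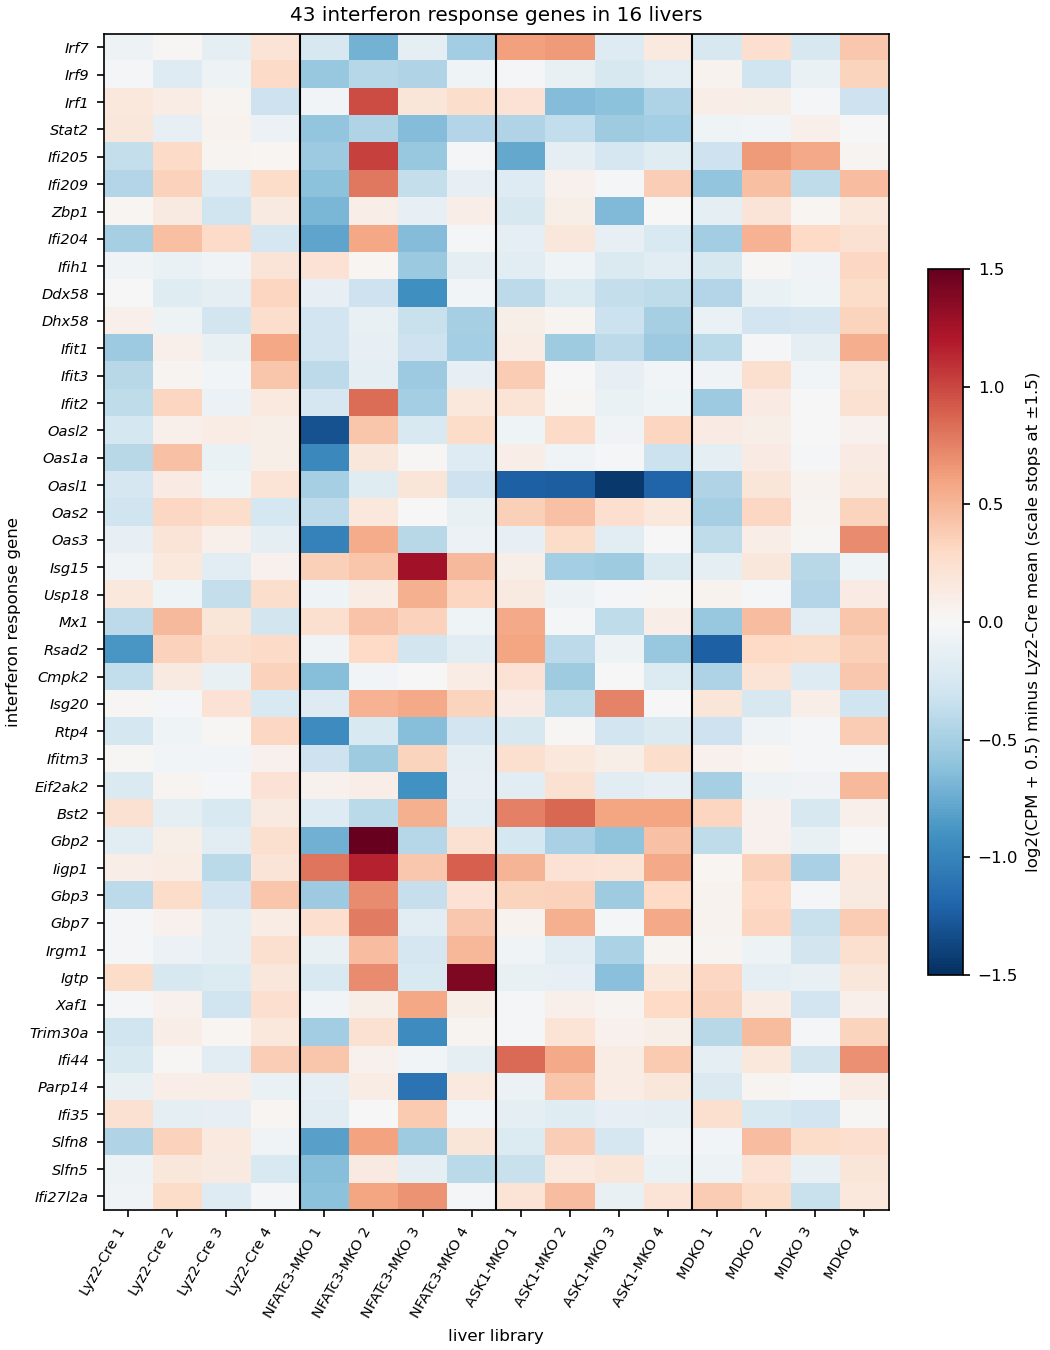
Level of the 43 members in each of the 16 livers as log2(CPM + 0.5) minus the Lyz2-Cre mean, with colours that stop at 1.5 above or below. Oasl1 is low across ASK1-MKO livers, Stat2 is low across both single knockouts, and many genes have like colours in the MDKO and Lyz2-Cre columns of the same number.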

How the data were processed

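RNA was sequenced as strand-specific poly-A libraries. The authors deposited expected counts per gene symbol for 16 livers, of which 85.42% of values were whole, and whole-number counts per gene ID for each culture set, per the file headers and values. Alignment used HISAT2 and mm10, per the submitters' processing notes. The sources used here name neither the counting program nor whether it used strand. The liver values were rounded. Ddx58 was read from the row of its RefSeq synonym.

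Each table was filtered (filterByExpr), scaled by TMM and tested in edgeR 4.0.16 (R 4.3.3, limma 3.58.1) by the robust quasi-likelihood test, with all 16 livers in one fit, Benjamini-Hochberg adjustment over all genes and a threshold of 0.05. The script was tested on simulated counts with 200 genes changed, far fewer than were called in the real counts. Log2 changes of 1 were called in 63.1% of cases for NFATc3-MKO against Lyz2-Cre livers, 92.4% for NFATc3-MKI and 97% for ASK1-MKI. SE is the log2 difference divided by the root of F. Alternatives were DESeq2 1.42.0, other scaling, no filter, a threshold of 0.1, only the 2 groups, the replicate number as a block, and each library left out. Members and lists were chosen with earlier results of these data known. Genes named were, per comparison, the called members (10 of smallest p in the cultures, the others by value), otherwise the 3 of smallest p. Also named were those that moved against the members' median or lay farthest out, the 2 highest per role group and up to 6 called pathway genes, Nfatc3 and Map3k5. Gbp2 and Igtp in liver were named after their values were seen.

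Same-numbered Lyz2-Cre and MDKO livers deviated together (correlations 0.53, 0.51, 0.26 and 0.24). NFATc3-MKO 2 reached 0.56 with Lyz2-Cre 2 and 0.28 with MDKO 2, so correlations alone do not set the MDKO pairs apart. Chi-square per degree of freedom was 2.31 to 13.65 for these pairs, against 44.46 to 151.74 for same-numbered Lyz2-Cre and NFATc3-MKO livers. The numbers of Lyz2-Cre and MDKO livers were therefore read as pairs, on the data's evidence alone. The blocked comparison of Lyz2-Cre and MDKO livers also called no member.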

Additional observations from a re-analysis of the deposited data

Results flagged for a closer look

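Of 28 groups of 4 livers examined among the members called in liver, 2 held a library far from its group, where chance gives about 1 in 20. Isg15 was at 22.2 CPM in NFATc3-MKO 3, a gap to the next liver of 0.892 of the group's range. Irf1 was at 22.3 CPM in ASK1-MKO 1, a gap of 0.837 of the range.

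By edgeR's interaction term, the difference tied to a knockout label varied with the other label for 3 members, 6.98% against 16.2% of all genes. The interaction was 1.01 for Stat2 (adjusted p = 0.000225), 1.53 for Oasl1 (adjusted p = 0.000535) and -1.17 for Iigp1 (adjusted p = 0.00684). All 3 rest on the MDKO livers, which resembled the same-numbered Lyz2-Cre livers and in which neither Nfatc3 nor Map3k5 was lower. They are therefore differences between labelled groups, and an effect of the knockouts was not tested apart from this likeness.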

How the results depend on the processing

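No called member changed direction under any alternative run. With only the 2 groups fitted, called members fell to 0 for NFATc3-MKO against Lyz2-Cre, 2 for NFATc3-MKO against ASK1-MKO and 1 for MDKO against NFATc3-MKO, and calls over all genes to 218 from 1124, 671 from 1697 and 283 from 978. At an adjusted p under 0.1 calls over all genes were 1706 to 2815 in those 3 and the other called liver pairs, DESeq2 gave 1704 in the first and 1628 in the third, and without the MDKO livers the first gave 694. The interaction gave 5 at an adjusted p under 0.1 and 6 (4 positive, 2 negative) with the replicate block. With each library left out, counts were 1 to 3 for NFATc3-MKO and 2 to 3 for ASK1-MKO against Lyz2-Cre, 0 to 0 for MDKO, 3 to 6 for NFATc3-MKO against ASK1-MKO, 1 to 4 and 2 to 3 for MDKO against NFATc3-MKO and ASK1-MKO, 3 to 4 for the interaction, and 33 to 35 and 33 to 37 for the cultures labelled NFATc3-MKI and ASK1-MKI. They moved most without Lyz2-Cre 3 (1), MDKO 3 (1), and NFATc3-MKO 2 or 4 or ASK1-MKO 2 (3 each). Without NFATc3-MKO 2 and Lyz2-Cre 2, chosen after seeing the data like the fits without whole groups, total-count scaling and autosomal genes, NFATc3-MKO against ASK1-MKO gave 3. Pairing by number was not shown for the other groups. The block gave 4 calls for NFATc3-MKO against Lyz2-Cre, 2 of them the same genes, with Isg15 lost (adjusted p = 0.0564). Total-count scaling moved the median of all genes to 0.16 for NFATc3-MKO against Lyz2-Cre, -0.151 for MDKO against NFATc3-MKO and -0.177 for the interaction, and 909 of 1159 calls were then higher in the first, against 502 of 1124. MDKO 3 was the shallowest liver. The biological coefficient of variation was 0.208 in livers, 0.089 in the NFATc3-MKI set and 0.021 in the ASK1-MKI set.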
